A study of Rattus norvegicus with 11 samples.

Results

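The enzymes that make and desaturate fatty acids, together with their transcriptional regulators, were followed in the renal cortex of rats with and without type 1 diabetes and gastric bypass. The members were 10 listed genes, found among the non-control probes through the RefSeq accession that the array files give for each probe. Of the 10, 9 had a probe and all 9 passed the filter on dim probes, with 10 probes between them, among 25807 genes tested, of which 14352 carried a name. The measured members were the regulator Mlxipl, 5 enzymes of acetyl-CoA supply, chain synthesis and elongation (Acly, Acaca, Acacb, Fasn and Elovl6) and 3 desaturases (Scd, Fads1 and Fads2). Srebf1, the gene of the sterol-regulated transcription factor SREBP-1, had no matched probe and was not analysed here.

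Fatty acid synthesis starts from citrate, which ATP citrate lyase (Acly) splits in the cytosol to acetyl-CoA. Acetyl-CoA carboxylases (Acaca in the cytosol, Acacb at the mitochondrial surface) turn this into malonyl-CoA, and fatty acid synthase (Fasn) builds palmitate from it with NADPH as the reductant. The elongase Elovl6 lengthens palmitate to stearate, stearoyl-CoA desaturase (Scd) places a double bond in stearate and palmitate, and the delta-5 and delta-6 desaturases (Fads1 and Fads2) act on the polyunsaturated fatty acids that give arachidonate. In liver, insulin raises many of these genes through SREBP-1, and glucose acts through ChREBP, the product of Mlxipl.

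The kidneys came from Sprague Dawley rats, and total RNA of each cortex sample was labelled with Cy3 and hybridised to an Agilent Rat 4 x 44K array. Control+Sham rats were non-diabetic and had a sham operation (3 arrays), and Control+RYGB rats were non-diabetic and had Roux-en-Y gastric bypass, in which food enters a small gastric pouch and bypasses the duodenum (3 arrays). DM+Sham (3 arrays) and DM+RYGB rats (2 arrays) had been made diabetic with streptozotocin, a toxin of insulin-producing beta cells. Surgery followed after 4 weeks and collection of the cortex after 4 more. All groups, controls included, had an operation, so no group shows an unoperated kidney. The labels do not say that replicates are separate animals, so the p-values measure only the spread between these samples, which may be technical. The arrays DM+Sham 2 and 3 lay closer together than repeated spots within an array (a spread of 0.0183 on the log2 scale against 0.0548 and 0.0527) and were counted as 1 sample. Control+RYGB 2 and 3 differed by about that noise (0.0544 against 0.0524 and 0.0515) and were also counted as 1, so that Control+Sham had 3 samples and every other group 2.

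The promoters of the 3 desaturases are shown because these genes fell together in the diabetic sham kidney and parted after bypass. The windows run from 250 bases before to 50 after the annotated start, 5′ to 3′ on the gene's strand, in the RefSeq annotation of assembly GRCr8. Capitals mark a CCAAT box (CCAAT, or ATTGG on the other strand) or a GC box (GGGCGG, or CCGCCC on the other strand).
Scd (chr1:253231682-253231981, minus strand): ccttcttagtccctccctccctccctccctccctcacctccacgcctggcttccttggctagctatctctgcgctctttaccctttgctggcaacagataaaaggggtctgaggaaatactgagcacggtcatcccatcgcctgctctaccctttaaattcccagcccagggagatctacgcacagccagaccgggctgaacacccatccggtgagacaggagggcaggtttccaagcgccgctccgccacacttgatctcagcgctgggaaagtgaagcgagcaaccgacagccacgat
Fads1 (chr1:216252442-216252741, plus strand): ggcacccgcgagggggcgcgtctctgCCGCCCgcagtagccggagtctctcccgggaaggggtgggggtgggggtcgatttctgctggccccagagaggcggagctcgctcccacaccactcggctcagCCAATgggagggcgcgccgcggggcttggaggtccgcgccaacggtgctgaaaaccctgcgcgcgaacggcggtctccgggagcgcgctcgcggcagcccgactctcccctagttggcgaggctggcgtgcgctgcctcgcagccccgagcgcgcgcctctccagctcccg
Fads2 (chr1:216171984-216172283, minus strand): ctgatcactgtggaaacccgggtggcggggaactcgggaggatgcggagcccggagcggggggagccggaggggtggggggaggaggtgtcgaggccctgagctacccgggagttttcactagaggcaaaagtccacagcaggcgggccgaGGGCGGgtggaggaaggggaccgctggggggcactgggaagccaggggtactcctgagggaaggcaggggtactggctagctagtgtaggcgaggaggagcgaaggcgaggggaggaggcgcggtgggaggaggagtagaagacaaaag

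The Fads1 window holds 1 CCAAT box, 121 bases before the start, and 1 GC box on the other strand. The Fads2 window holds 1 GC box, and the Scd window holds neither motif. Among 33469 rat promoter windows of the same length, 37.5% held CCAAT and 33.1% held GGGCGG, counting both strands. A sterol regulatory element was searched as TCACNCCAC and an E-box as CACGTG, again on both strands; 1.12% and 6.42% of all windows held them, and the windows of the 7 listed genes in the promoter table (Srebf1, Mlxipl, Acly, Acacb, Scd, Fads1 and Fads2) did not. Such a match, or its lack, describes letters in these windows only.

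**Figure D1:**
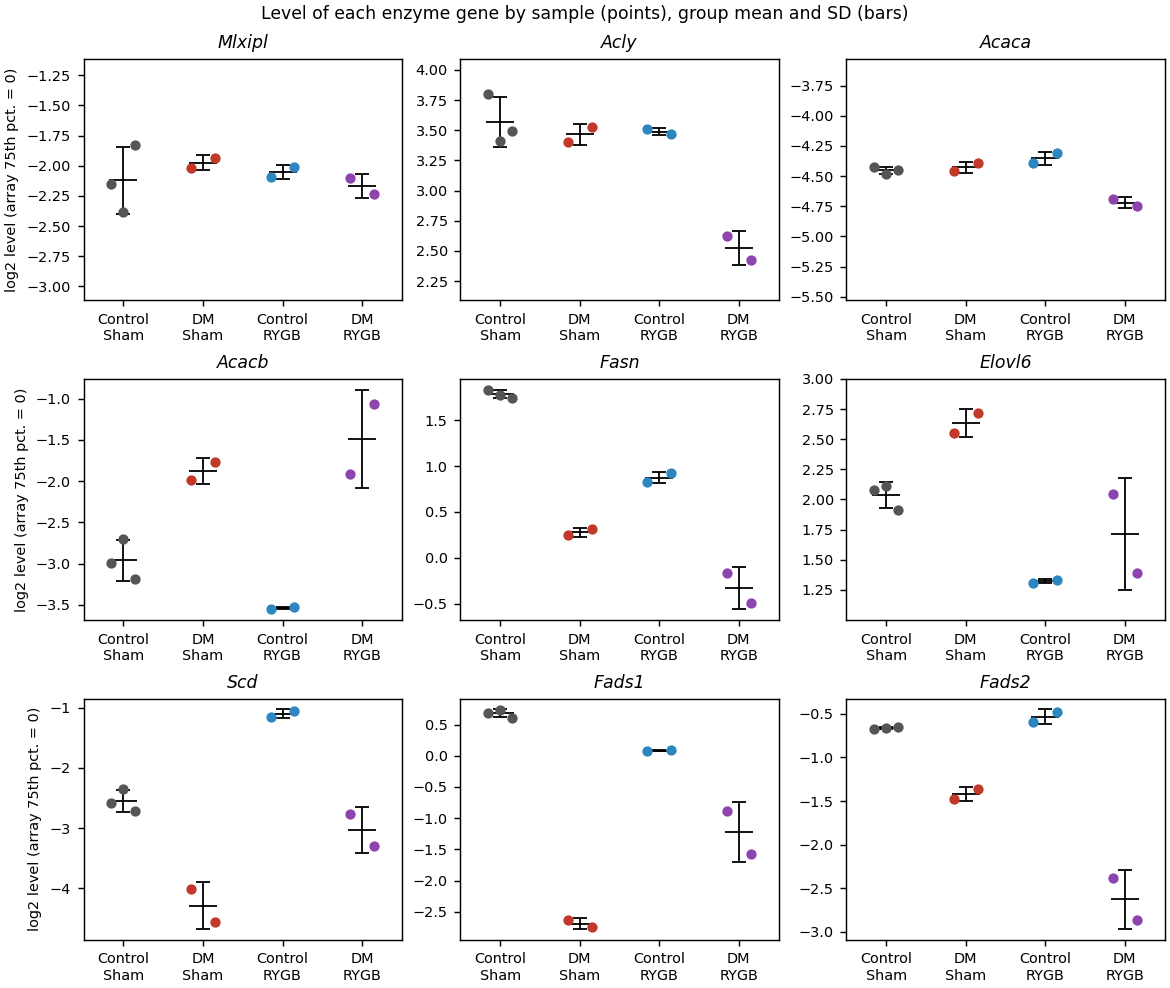
Level of each member in every sample, as log2 signal minus the array's 75th percentile (y axis), by group (x axis), with 1 panel per gene; points are samples, and bars give the group mean and SD (n = 3 for Control+Sham, n = 2 for the others). Fads1 is near 0.7 in Control+Sham and below -2.6 in DM+Sham, and Scd is highest in Control+RYGB.

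Levels are given as log2 signal minus the 75th percentile of the array, so 0 is the 75th percentile and the levels of different genes are not comparable. The words rose and fell are kept for genes whose adjusted p from limma (Benjamini-Hochberg over all 25807 genes) was below 0.05, in 1 direction, with 75th percentile, median and quantile scaling. All 10 probes were well above background on all 11 arrays and none was saturated. The dimmest was Acaca, at a signal of 38.43 to 114. Between 77.7% and 93.5% of the 30367 probes were well above background on an array. In bulk cortex, fewer cells of a type and less RNA per cell cannot be told apart. The array labelled DM+RYGB 2 stood apart: its summed level of 8 heart muscle genes was 465.8 times the 75th percentile signal, against 0.7336 to 1.532 on the other 10 arrays, so the members' results that use it, and those of the partner genes named below, are also given without it. In control rats 6 of the 8 were higher on every bypass array than on every sham array, and 1 was lower. In diabetic rats 6 of the 8 were higher on both bypass arrays, and 0 were lower. Myh6 was at -3.98 on DM+RYGB 1 and -5.10 to -4.59 in Control+RYGB, against -7.33 to -6.86 in Control+Sham and -7.29 to -6.88 in DM+Sham. The part of heart muscle RNA in the members' differences was not tested.

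Diabetes in sham-operated rats came with lower transcript levels of fatty acid synthase and of all 3 desaturases, while none of the enzymes that feed them with acetyl-CoA and malonyl-CoA passed as lower. DM+Sham was set against Control+Sham to ask what streptozotocin diabetes does to these genes. Of the 9 measured members 0 rose and 4 fell, where 12.6% of all genes tested passed in either direction, 5.96% higher and 6.61% lower. At an unadjusted p under 0.05 from limma, 2 members were higher with 75th percentile scaling. Among the 3 desaturases 3 fell, and among the 5 synthase and acetyl-CoA enzymes 1 did.

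Fads1, the delta-5 desaturase, was at 0.69, 0.74 and 0.61 in Control+Sham and at -2.63 and -2.75 in DM+Sham. The groups lay far apart, and the fall was 3.37 on the log2 scale (SE 0.19, adjusted p = 0.000237), or 10.3-fold. Scd, the stearoyl-CoA desaturase, was at -2.59, -2.36 and -2.72 in Control+Sham and at -4.01 and -4.56 in DM+Sham. Its groups did not overlap either, although the diabetic samples spread more, with a fall of 1.73 (SE 0.23, adjusted p = 0.00435). Before scaling, the Scd signal was dim and nearly equal on the 3 DM+Sham arrays, at 82.5, 79.78 and 83.61. The 75th percentiles of these arrays were 1332, 1948 and 1906, so the spread appeared with the scaling. Fads2, the delta-6 desaturase, was nearly the same in the 3 Control+Sham samples, at -0.67, -0.66 and -0.65, and was at -1.48 and -1.36 in DM+Sham. It fell by 0.76 (SE 0.15, adjusted p = 0.0176), the smallest fall of the 3 desaturases.

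Fasn was at 1.83, 1.78 and 1.74 in Control+Sham and at 0.24 and 0.31 in DM+Sham, with both groups tight and well separated. It fell by 1.50 (SE 0.12, adjusted p = 0.000656), or 2.84-fold. Acly, which makes the acetyl-CoA, was at 3.80, 3.41 and 3.49 in Control+Sham and at 3.40 and 3.53 in DM+Sham, so the groups overlapped (-0.10, SE 0.14, adjusted p = 0.668). Acaca, the cytosolic carboxylase, also overlapped, with a difference of 0.02 (SE 0.09, adjusted p = 0.877).

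Acacb, the carboxylase whose malonyl-CoA holds back fatty acid import into mitochondria, was at -2.99, -2.70 and -3.19 in Control+Sham and at -1.99 and -1.77 in DM+Sham. Every diabetic sample was above every control, by 1.09 on average (SE 0.26, adjusted p = 0.0336), but the adjusted p was 0.0559 with median and 0.0766 with quantile scaling, so it is not counted as a rise. Elovl6 was at 2.08, 2.11 and 1.92 against 2.55 and 2.71, again without overlap, with a difference of 0.60 (SE 0.19, adjusted p = 0.0804). Its second probe was at -3.34, -3.34 and -3.43 in Control+Sham and at -2.41 and -2.34 in DM+Sham, a difference of 1.00 with an adjusted p of 0.0134. Both probes therefore had the diabetic samples above the controls, and with all 9 samples and 75th percentile scaling only the dimmer one passed. The first probe passed with 11 separate arrays (0.62, adjusted p = 0.0128) and with only the 2 groups compared (0.60, 0.0262). The mean of both probes also passed (0.80, adjusted p = 0.0308). With median (0.51, adjusted p = 0.149) and quantile scaling (0.64, 0.0776) the first probe did not pass. Mlxipl, whose product is the glucose-responsive factor ChREBP, had overlapping groups and a difference of 0.15 (SE 0.17, adjusted p = 0.593).

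Of the scan days, 2 held an array of each group, and on these the differences were -3.37 and -3.36 for Fads1, -1.53 and -1.43 for Fasn, -1.65 and -1.89 for Scd, and -0.82 and -0.73 for Fads2. The Fads2 call was lost with scan day as a block (adjusted p = 0.0642) and without Control+Sham 1 (0.0639), Control+Sham 2 (0.0597), DM+Sham 1 (0.0857) or the merged DM+Sham 2 and 3 (0.087), with differences of -0.71 to -0.82 throughout. With normexp background correction, Fads2 differed by -0.66 (adjusted p = 0.613) and Scd by -1.21 (0.335), and neither passed. With 75th percentile scaling, 3 members passed with scan day as a block and without Control+Sham 1 or Control+Sham 2, and 2 passed with normexp. With all samples 5 did, where 17.8% of all genes passed.

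**Figure D2:**
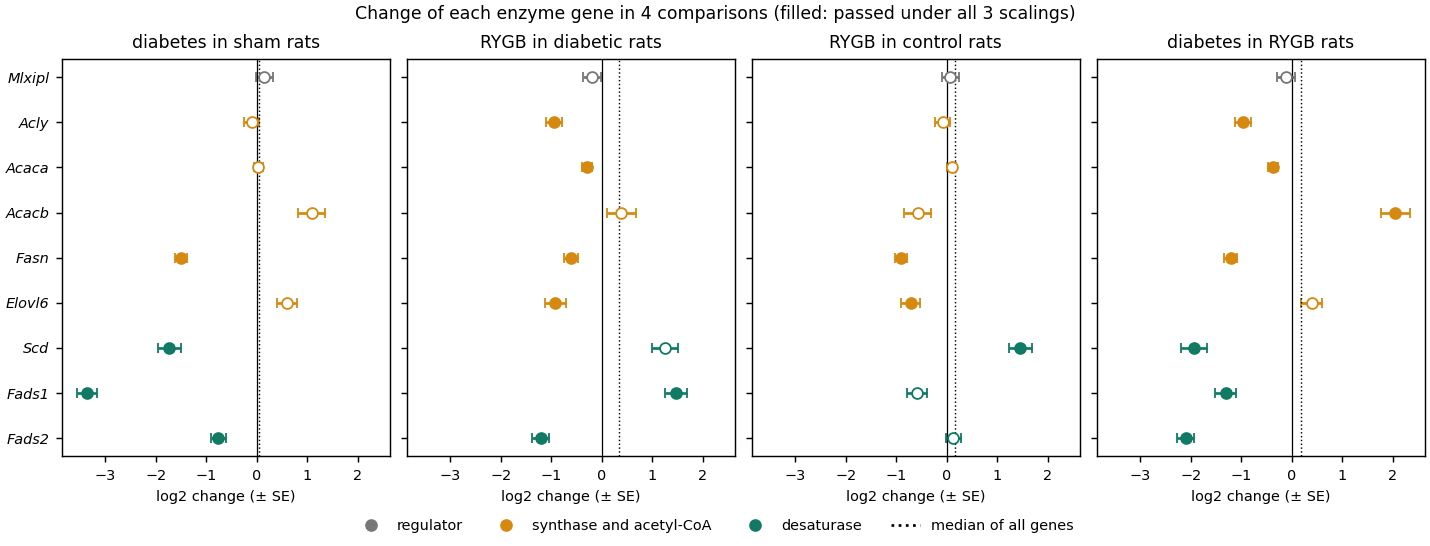
Log2 difference of each measured member in 4 comparisons (x axis, log2 scale), with bars for the standard error, filled points for members that passed with all 3 scalings, a colour for each set and a dotted line at the median of all genes. Fads1 fell by 3.37 with diabetes in sham rats and rose by 1.47 with bypass in diabetic rats, whereas Fads2 fell in both.

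Gastric bypass in diabetic rats moved the desaturases apart and came with lower levels of the synthase side. DM+RYGB was set against DM+Sham to ask what the operation does in the diabetic kidney. Fads1 rose, Scd was higher without passing all scalings, and Fads2, Fasn, Acly, Elovl6 and Acaca fell, so that 1 of 9 members rose and 5 fell. Of all genes tested, 25.9% passed in either direction, 10.4% higher and 15.6% lower. Of the 5 synthase and acetyl-CoA enzymes 4 fell, and of the 3 desaturases 1 rose and 1 fell.

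Fads1 was at -2.63 and -2.75 in DM+Sham and at -0.88 and -1.57 in DM+RYGB. Both operated samples were above both sham samples, by 1.47 (SE 0.21, adjusted p = 0.00268), and both remained below all 3 Control+Sham samples. Scd was at -4.01 and -4.56 in DM+Sham and at -2.76 and -3.31 in DM+RYGB, a difference of 1.25 (SE 0.25, adjusted p = 0.00801). The Scd groups did not overlap, but with quantile scaling the difference was 0.68 with an adjusted p of 0.0675. Before scaling, the dim Scd signal was 79.78 to 83.61 on the DM+Sham arrays and 158.3 and 104.6 on the DM+RYGB arrays. Fads2 went the other way, from -1.48 and -1.36 to -2.39 and -2.87, a fall of 1.21 (SE 0.17, adjusted p = 0.00221). Its DM+RYGB samples were the lowest of all 9.

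Fasn was at 0.24 and 0.31 in DM+Sham and at -0.17 and -0.49 in DM+RYGB, the lowest levels of the 4 groups. It fell by 0.61 (SE 0.13, adjusted p = 0.0106). Acly, which had not differed between the sham groups, went from 3.40 and 3.53 to 2.62 and 2.42, a fall of 0.94 (SE 0.16, adjusted p = 0.00433). Acly in DM+RYGB was below every sample of the other 3 groups.

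Elovl6 was at 2.55 and 2.71 in DM+Sham and at 2.04 and 1.39 in DM+RYGB, where the samples were further apart from each other than in any other group. It fell by 0.92 (SE 0.21, adjusted p = 0.0135), but its second probe differed by only -0.22 with an adjusted p of 0.391, so the fall rests on 1 probe. Acaca fell by 0.29 (SE 0.10, adjusted p = 0.0471), from -4.46 and -4.39 to -4.69 and -4.75. Acacb had overlapping groups, at -1.99 and -1.77 in DM+Sham and -1.91 and -1.07 in DM+RYGB, a difference of 0.39 (adjusted p = 0.288). This value depended on which DM+RYGB sample was kept: it was -0.035 (adjusted p = 0.898) without DM+RYGB 2 and 0.81 (adjusted p = 0.0311) without DM+RYGB 1. Mlxipl differed by -0.19 (adjusted p = 0.406). It passed with median scaling (-0.57, adjusted p = 0.0326), but not with quantile scaling (-0.47, 0.0615), and turned to 0.35 (0.366) with normexp background correction.

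The median of all genes in this comparison was 0.34 with the 75th percentile, -0.03 with median and -0.06 with quantile scaling. Relative to 0.34, the differences were 1.12 for Fads1, 0.91 for Scd, -1.55 for Fads2, -0.95 for Fasn, -1.29 for Acly and -1.26 for Elovl6. Without DM+RYGB 2, Fads1 differed by 1.81, Scd by 1.53, Fads2 by -0.97, Fasn by -0.45, Elovl6 by -0.59 and Acly by -0.84, each still past the threshold, and Acaca by -0.26 with an adjusted p of 0.0643. The Acaca call was lost under 11 of 20 alternatives, on leaving out any sample other than DM+RYGB 1 among them (-0.26 to -0.33, adjusted p = 0.0643 to 0.2), and turned to 1.24 (adjusted p = 0.153) with normexp background correction. With normexp, where the median of all genes was 0.94, Fads2 (-0.45, adjusted p = 0.353) and Scd (1.58, 0.0638) no longer passed either. With only the 2 groups compared in the fit, Scd (1.25, adjusted p = 0.064), Fasn (-0.61, 0.0987) and Elovl6 (-0.92, 0.0921) missed the threshold, as did Fasn (-0.61, 0.0643) and Elovl6 (-0.87, 0.0699) with scan day as a block. Without the merged DM+Sham 2 and 3, Fasn (-0.58, adjusted p = 0.0598) and Elovl6 (-0.84, 0.0704) no longer passed, which left 4 members called against 7 with 75th percentile scaling, where 48.4% of all genes were called. On the 1 scan day with both groups the differences were 1.87 for Fads1, 1.75 for Scd, -1.03 for Fads2, -0.49 for Fasn, -0.90 for Acly and -0.68 for Elovl6.

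In control rats gastric bypass came with lower Fasn and Elovl6, the genes of chain synthesis and elongation, and with higher Scd. Control+RYGB was set against Control+Sham to give the effect of the operation without diabetes. Of 9 members 1 rose and 2 fell, where 15.1% of all genes tested passed in either direction, 6.9% higher and 8.24% lower. The falls were 2 of the 5 synthase and acetyl-CoA enzymes, and the rise was 1 of the 3 desaturases.

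Scd was at -2.59, -2.36 and -2.72 in Control+Sham and at -1.15 and -1.05 in Control+RYGB. The bypass samples were above all others in the study, and the rise was 1.45 (SE 0.23, adjusted p = 0.00958), or 2.74-fold. Fasn went from 1.83, 1.78 and 1.74 to 0.83 and 0.92, a fall of 0.91 (SE 0.12, adjusted p = 0.00599). Its bypass samples therefore lay between those of Control+Sham and DM+Sham. Elovl6 went from 2.08, 2.11 and 1.92 to 1.31 and 1.33, a fall of 0.71 (SE 0.19, adjusted p = 0.041), and its second probe differed by -0.20 (adjusted p = 0.454).

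Fads1 was at 0.08 and 0.09 in Control+RYGB, below every Control+Sham sample by 0.59 on average (SE 0.19, adjusted p = 0.0659). Acacb was at -3.55 and -3.53, also below every Control+Sham sample (-0.58, SE 0.26, adjusted p = 0.146). Neither passed with all 9 samples and 75th percentile scaling. Fads1 passed with median scaling (-0.77, adjusted p = 0.0343), 11 separate arrays (-0.59, 0.0138) and only the 2 groups compared (-0.59, 0.0121). It did not pass with quantile scaling (-0.58, adjusted p = 0.0916). With the replicate number as a block both passed (-0.59, adjusted p = 0.0206, and -0.57, 0.0401), although the numbers pair no samples. With normexp or scan day as a block 0 members passed. Fads2 was at -0.59 and -0.47, 0.13 above Control+Sham (adjusted p = 0.554), and Acly, Acaca and Mlxipl differed by -0.08, 0.10 and 0.07 with adjusted p of 0.701, 0.436 and 0.78.

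The median of all genes was 0.15 with the 75th percentile and -0.02 with median scaling, and relative to 0.15 the differences were 1.30 for Scd, -1.06 for Fasn and -0.87 for Elovl6. Leaving out Control+RYGB 1 took Fasn to -0.86 (adjusted p = 0.0637), Scd to 1.50 (0.0726) and Elovl6 to -0.70 (0.182), and leaving out the merged Control+RYGB 2 and 3 took them to -0.95 (0.0508), 1.41 (0.072) and -0.73 (0.163), so that 0 members passed limma's adjusted threshold in either case and 3 had an unadjusted p under 0.05. Elovl6 was also lost without Control+Sham 1 (-0.69, adjusted p = 0.115), Control+Sham 2 (-0.68, 0.111), Control+Sham 3 (-0.77, 0.0501), DM+Sham 1 (-0.71, 0.0583) or DM+Sham 2 and 3 (-0.71, 0.0583). Without DM+RYGB 1 or without DM+RYGB 2, Fads1 differed by -0.59 and Acacb by -0.58. With all samples 3 members were called with 75th percentile scaling, where 24.3% of all genes were called. With normexp background correction Fasn (-0.82, adjusted p = 0.0531), Elovl6 (-0.84, 0.0698) and Scd (1.21, 0.254) did not pass, nor did they with scan day as a block (-0.85, 0.161; -0.61, 0.382; 1.77, 0.0937). No scan day held both groups, and all Control+RYGB arrays lay at a slide position that no other array had, so operation and position cannot be told apart.

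Diabetes among bypass-operated rats came with lower levels of 6 members and a higher level of Acacb. DM+RYGB was set against Control+RYGB, and the tests share the DM+RYGB and Control+RYGB samples with the comparisons above. The Control+RYGB arrays had a slide position of their own, so diabetes and position cannot be told apart here either. Of 9 members 1 rose and 6 fell, where 18.2% of all genes passed in either direction, 7.42% higher and 10.7% lower. All 3 desaturases fell, as did 3 of the 5 synthase and acetyl-CoA enzymes.

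Fads2 was at -0.59 and -0.47 in Control+RYGB and at -2.39 and -2.87 in DM+RYGB, a fall of 2.10 (SE 0.17, adjusted p = 0.000402), or 4.28-fold. Scd fell by 1.93 (SE 0.25, adjusted p = 0.00217) and Fads1 by 1.31 (SE 0.21, adjusted p = 0.00512). The order of the falls thus differed from that in sham rats, where Fads1 fell most and Fads2 least. Fasn fell by 1.21 (SE 0.13, adjusted p = 0.00125), Acly by 0.97 (SE 0.16, adjusted p = 0.00528) and Acaca by 0.37 (SE 0.10, adjusted p = 0.0322). Acacb was at -3.55 and -3.53 in Control+RYGB and at -1.91 and -1.07 in DM+RYGB, and it rose by 2.05 (SE 0.29, adjusted p = 0.00292), or 4.14-fold.

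Elovl6 differed by 0.39 (SE 0.21, adjusted p = 0.214), with the 2 diabetic samples at 2.04 and 1.39 against 1.31 and 1.33. Its second probe differed by 0.98 with an adjusted p of 0.0121, and the mean of both probes also passed (0.69, adjusted p = 0.0458). Without DM+RYGB 2 the first probe's difference was 0.72. With all samples and 75th percentile scaling 1 member was called higher and 6 lower, where 29.7% of all genes were called. The median of all genes was 0.19 with the 75th percentile and -0.09 with median scaling, and relative to 0.19 Fads2 differed by -2.29, Scd by -2.12, Fads1 by -1.50, Fasn by -1.40, Acly by -1.15 and Acacb by 1.86. Without DM+RYGB 2 the called members also passed, with Fads2 at -1.86, Scd at -1.66, Fads1 at -0.97, Fasn at -1.05, Acly at -0.87, Acaca at -0.34 (adjusted p = 0.039) and Acacb at 1.63. With normexp background correction, where the median of all genes was 0.89, Scd (-0.84, adjusted p = 0.183) and Fads2 (-1.28, 0.0738) did not pass. Fads1 (-1.31, adjusted p = 0.0647) did not pass with only the 2 groups compared in the fit. The Acaca call was lost under 7 of 20 alternatives and turned to 1.31 (adjusted p = 0.137) with normexp. Among the 7 were the fits without Control+Sham 1 (-0.37, adjusted p = 0.0737), Control+Sham 2 (-0.37, 0.0587), DM+Sham 1 or the merged DM+Sham 2 and 3 (-0.37, 0.0603 each), Control+RYGB 1 (-0.41, 0.11) and Control+RYGB 2 and 3 (-0.33, 0.175). Within the scan days that held both groups, Fads2 differed by -1.80 and -2.39, Scd by -1.61 and -2.25, Fads1 by -0.96 and -1.66 and Acly by -0.88 and -1.05.

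Whether bypass acted differently in diabetic and control rats was tested as the difference between the 2 bypass effects. The Control+RYGB arrays, with a slide position of their own, enter this test, so position cannot be told apart from it. Fads1 was 2.06 (SE 0.29, adjusted p = 0.00443) in the upward direction: bypass came with a difference of 1.47 in diabetic rats and -0.59 in control rats. Fads2 was -1.33 (SE 0.22, adjusted p = 0.00825): the bypass effect was -1.21 in diabetic rats and 0.13 in control rats. These 2 of 9 members passed all 3 scalings, 1 in each direction, where 15.8% of all genes did, 6.48% upward and 9.29% downward. Acly had a difference of -0.86 (SE 0.21, adjusted p = 0.0307), with an adjusted p of 0.104 under quantile scaling. For Acaca it was -0.39 (SE 0.13, adjusted p = 0.0809), which passed with median (-0.59, 0.0442) and quantile scaling (-0.85, 0.0149). With normexp the Acaca value turned to 1.53 (adjusted p = 0.22). Acacb was at 0.96 (SE 0.39, adjusted p = 0.126) and Mlxipl at -0.26 (SE 0.25, adjusted p = 0.5). With normexp background correction, where the median of all genes was 0.92, Fads2 was at -0.62 (adjusted p = 0.368) and no longer passed.

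For Fasn the difference between the bypass effects was 0.30 (SE 0.18, adjusted p = 0.285), for Scd -0.20 (SE 0.34, adjusted p = 0.716) and for Elovl6 -0.20 (SE 0.29, adjusted p = 0.661). With all samples, no difference in how bypass moved these 3 genes was detected, at a standard error that leaves room for one. Without DM+RYGB 2 the values were 2.40 for Fads1, -1.10 for Fads2, 0.46 for Fasn (adjusted p = 0.038) and -0.76 for Acly (adjusted p = 0.0514). Acly also missed the threshold without Control+Sham 2 or 3, DM+Sham 1, the merged DM+Sham 2 and 3, Control+RYGB 1 or the merged Control+RYGB 2 and 3 (-0.78 to -0.93, adjusted p = 0.0585 to 0.103). With all samples 3 members passed with 75th percentile scaling, where 22.8% of all genes did.

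The medians of the synthase side and of the desaturases are given side by side, and the difference between the 2 sets was not tested. The median difference of the 5 synthase and acetyl-CoA enzymes was 0.02 with diabetes in sham rats, -0.61 with bypass in diabetic rats, -0.58 with bypass in control rats and -0.37 with diabetes in bypass rats. For the 3 desaturases it was -1.73, 1.25, 0.13 and -1.93, and for all genes 0.04, 0.34, 0.15 and 0.19. With 3 desaturases the median is the value of 1 gene, and 1.25 is that of Scd, which did not pass with quantile scaling. These comparisons share samples, and neither set moved as a block: Acacb went against Fasn in both diabetes comparisons, and Fads2 went against Fads1 in bypass among diabetic rats.

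The order of the groups also differed by gene. Fasn ranked Control+Sham, Control+RYGB, DM+Sham and DM+RYGB from high to low, with means of 1.78 ± 0.04 (SD, n = 3), 0.87 ± 0.06, 0.28 ± 0.05 and -0.33 ± 0.23 (SD, n = 2 each) and no overlap between neighbours. Scd ranked Control+RYGB (-1.10 ± 0.07), Control+Sham (-2.56 ± 0.18), DM+RYGB (-3.03 ± 0.38) and DM+Sham (-4.29 ± 0.39), and there the highest DM+RYGB sample, at -2.76, was just below the lowest Control+Sham sample, at -2.72. Fads1 ranked Control+Sham (0.68 ± 0.06), Control+RYGB (0.08 ± 0.01), DM+RYGB (-1.23 ± 0.49) and DM+Sham (-2.69 ± 0.08). Fads2 had Control+RYGB (-0.53 ± 0.08) and Control+Sham (-0.66 ± 0.01) side by side, then DM+Sham (-1.42 ± 0.08) and DM+RYGB (-2.63 ± 0.34). Acacb ranked the other way, from DM+RYGB (-1.49 ± 0.60) and DM+Sham (-1.88 ± 0.15), which overlapped, to Control+Sham (-2.96 ± 0.25) and Control+RYGB (-3.54 ± 0.01).

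The named genes whose profile over the 9 samples came closest were found by the root mean square difference of centred log2 levels, as a description with no test. For Fasn, whose own levels varied by 0.822 on this measure, they were Tlr12 (0.13), Cdk1 (0.133) and Fzd5 (0.146). For Scd, with 1.10, they were Rasa2 (0.297), C4bpa (0.312) and Apoc1 (0.364). For Fads1, with 1.32, they were Glyatl1 (0.21), Pbk (0.227) and Rgn (0.285). Among the other members, Fads2 was the closest to Fasn, at a distance of 0.43 and rank 204 of 14352, and Scd was the closest to Fads1, at 0.84 and rank 176.

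The surrounding pathway was followed through 63 listed partner genes, of which 58 had a probe and 57 were tested. In sham rats with diabetes 3 of the 57 rose and 7 fell, against 5.96% and 6.61% of all genes. Scd2, a close paralog of Scd, fell by 2.32 (SE 0.14, adjusted p = 0.000255), from 3.31, 3.39 and 3.22 to 0.88 and 1.09, and cross-hybridisation between the 2 genes was not tested. Insig1, which holds SREBP precursors in the endoplasmic reticulum and is itself a target of SREBP, fell by 1.59 (SE 0.12, adjusted p = 0.000595). Pklr, the liver-type pyruvate kinase and a ChREBP target in liver, fell by 1.42 (SE 0.23, adjusted p = 0.00839). The NADPH-producing malic enzyme Me1 fell by 0.68 (adjusted p = 0.0232; its second probe differed by -1.20, adjusted p = 0.00324) and the isocitrate dehydrogenase Idh1 by 0.60 (adjusted p = 0.0164). With 75th percentile scaling alone 11 partners passed, against 6 without Control+Sham 1 or DM+Sham 1, 7 without Control+Sham 2, 2 without DM+Sham 2 and 3, and 17 without either DM+RYGB sample.

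With bypass in diabetic rats 2 of the 57 partners rose and 22 fell, against 10.4% and 15.6% of all genes, and the median difference of the 57 was -0.32 against 0.34 for all genes. Of the 9 measured elongation cycle genes 5 fell, led by Elovl2, an elongase of polyunsaturated fatty acids, at -2.66 (SE 0.20, adjusted p = 0.000399; second probe -1.41, adjusted p = 0.000377), and by the ketoacyl-CoA reductase Hsd17b12 at -1.32 (SE 0.11, adjusted p = 0.000519). Idh1 fell by 1.17 (adjusted p = 0.00107). The liver X receptor gene Nr1h2 fell by 0.88 (adjusted p = 0.00468). Mlx, whose product pairs with ChREBP, fell by 0.59 (adjusted p = 0.00757), but its second probe differed by -0.00074 (adjusted p = 0.998). The differences without DM+RYGB 2 were -2.34 for Elovl2, -1.26 for Hsd17b12, -1.03 for Idh1, -0.94 for Nr1h2 and -0.61 for Mlx, each past the threshold. Without the merged DM+Sham 2 and 3, 15 partners passed with 75th percentile scaling, against 31 with all samples.

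With bypass in control rats 2 of the 57 partners rose and 7 fell, against 6.9% and 8.24% of all genes. Txnip, a glucose-induced ChREBP target, rose by 1.97 (SE 0.40, adjusted p = 0.0192), and Thrsp, a lipogenic nuclear protein, fell by 1.12 (SE 0.28, adjusted p = 0.0345). Acss2, which makes acetyl-CoA from acetate, fell by 0.70 (adjusted p = 0.0334), Me1 by 0.55 (adjusted p = 0.0392; second probe -0.76, adjusted p = 0.0175) and Scd2 by 0.68 (adjusted p = 0.0195). Scd2 thus moved against Scd in these rats. Cyb5b, a cytochrome b5 of the outer mitochondrial membrane, fell by 0.58 (adjusted p = 0.0151), but its second probe was higher, by 0.37 with an adjusted p of 0.0373. Without Control+RYGB 1, or without Control+RYGB 2 and 3, 0 partners passed limma's adjusted threshold with 75th percentile scaling (12 and 10 at an unadjusted p under 0.05), against 11 with all samples, and without Control+Sham 1 or 2 it was 1 and 2. The count was 7 without Control+Sham 3, 6 without DM+Sham 1 or DM+Sham 2 and 3, and 20 without either DM+RYGB sample.

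Among bypass rats 3 of the 57 partners rose with diabetes and 13 fell, against 7.42% and 10.7% of all genes. Insig1 fell by 1.88 (SE 0.14, adjusted p = 0.00031), Scd2 by 1.18 (SE 0.15, adjusted p = 0.00208) and Elovl2 fell by 3.43 (SE 0.20, adjusted p = 0.000172; second probe -1.86, adjusted p = 0.000142). They differed by -2.04, -1.01 and -3.11 when DM+RYGB 2 was left out, each past the threshold. Insig1 was at 0.74 and 0.79 in DM+Sham and at 0.61 and 0.92 in DM+RYGB, against 2.30 to 2.72 in the 5 non-diabetic samples, so it was low in both diabetic groups. Without Control+RYGB 1, 12 partners passed, against 21 with all samples and 75th percentile scaling. In the test of the difference between the bypass effects 3 partners passed upward and 11 downward, against 6.48% and 9.29% of all genes, with Scd2 at 1.14 and Elovl2 at -3.21 (1.31 and -2.89 without DM+RYGB 2), and 17 passed with 75th percentile scaling. That count was 7 without Control+RYGB 1, 8 without Control+RYGB 2 and 3, 10 without DM+Sham 2 and 3, 11 without Control+Sham 1 or 2, and 28 without DM+RYGB 1.

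**Figure D3:**
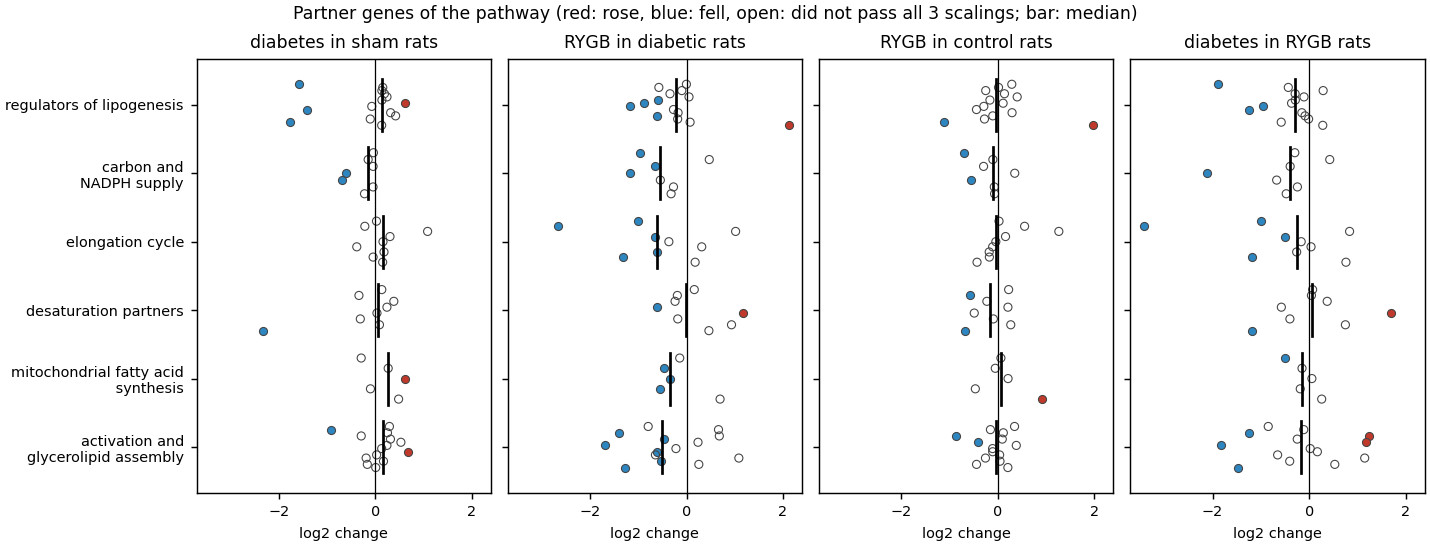
Log2 difference of each of the 57 tested partner genes (points, x axis) by pathway set in 4 comparisons, in red where the gene rose, in blue where it fell and open where it did not pass all 3 scalings, with a bar at the median of the set. The leftmost points are Scd2 in sham rats (-2.32) and Elovl2 in the comparisons with DM+RYGB (-2.66 and -3.43), and 22 of the 57 are blue for bypass in diabetic rats.

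Markers of cell types that a piece of cortex could hold moved with some of these results, given as linear signals summed over each list in units of the array's 75th percentile. The 7 proximal tubule genes summed to 168.6 to 248.5 in Control+Sham, 208.7 to 236.3 in DM+Sham, 339.5 to 428.8 in Control+RYGB and 94.94 to 167 in DM+RYGB. The 3 podocyte genes summed to 33.55 and 45.94 in DM+RYGB and to 16.62 to 18.92 elsewhere. The falls of Fasn and Elovl6 with bypass thus came with a higher proximal tubule sum in control rats and with a lower one, and a higher podocyte sum, in diabetic rats, and the part of these shifts was not tested. Between the bypass groups, 6 of the 7 proximal tubule genes were lower on every DM+RYGB array and 1 overlapped. All 3 podocyte genes were higher there. Every difference of a member or partner that uses DM+RYGB came with such shifts, and their part was not tested. Between the sham groups the proximal tubule sums overlapped, as did the loop of Henle gene Umod. The 3 distal tubule and collecting duct genes summed to 46.05 to 76.55 in Control+Sham and 82.15 to 114.4 in DM+Sham. In the same order, 3 red blood cell genes summed to 16.54 to 20.08 and 29.49 to 41.23. The 4 macrophage and T cell genes summed to 3.223 to 3.303 and 2.504 to 2.67. Podocyte sums were 16.62 to 17.82 and 18.08 to 18.92. The part of these shifts in the members' differences was not tested.

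The 6 hepatocyte genes summed to 15.1 to 17.81 in Control+RYGB and to 1.917 to 3.976 elsewhere, mostly through Alb, so the Scd rise in control rats went with a higher albumin signal. Of the 6, 4 were higher on every Control+RYGB array than on every Control+Sham array: Alb at 3.58 to 3.91 against 0.54 to 1.19, Fgb at 1.13 to 1.33 against 0.09 to 0.24, Serpina1 at -3.01 to -2.70 against -4.34 to -4.02 and Tat at -3.64 to -3.50 against -8.83 to -8.22. Tat was well above background on 3 of 3 Control+RYGB arrays and on 0 of 3 Control+Sham arrays. Apoa1, at -5.94 to -5.69 against -6.77 to -5.79, and Apob, at -1.52 to -1.39 against -1.69 to -1.15, overlapped. The part of liver-type RNA in the Scd rise was not tested. In sham rats with diabetes the hepatocyte sum was lower, at 2.288 to 2.511 against 2.897 to 3.976. Alb was at -2.21 to -2.18 in DM+Sham and Apob at -2.43 to -2.26, below every Control+Sham array, while Fgb, at 0.85 to 1.03, was above. Tat, at -8.18 to -7.63, was also above, but only 1 of 3 DM+Sham arrays had it well above background. The part of these shifts in the falls of Fasn and the desaturases was not tested. Of 10 adipocyte genes 7 were measured, and they summed to 6.18 to 7.051 in 3 groups and to 8.626 and 18.61 in DM+RYGB. Adipoq, which defines adipocytes, was at 1.97 to 2.67 on all arrays, and on DM+RYGB 2 the higher sum came from Cidea (3.72) and Cfd (0.08). Between the sham groups 5 of the 7 overlapped, whereas Retn was at -3.18 to -2.95 in Control+Sham and -6.24 to -6.04 in DM+Sham, and Cidec at -1.80 to -1.65 and -0.99 to -0.92. With bypass in diabetic rats 4 of the 7 were higher on every array, among them Retn at -2.76 to -2.15, and Cidec was lower, at -2.22 to -1.62. In control rats 3 were higher and 2 lower with bypass, with Retn at -2.63 to -2.49 and Cidec at -2.08 to -2.05 in Control+RYGB, and the part of adipocyte RNA in the members' differences was not tested. The 7 urothelium genes summed to 3.889 to 4.146 in Control+Sham and to 0.3198 to 0.8379 in the other groups, and their part in the differences from Control+Sham was not tested.

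**Figure D4:**
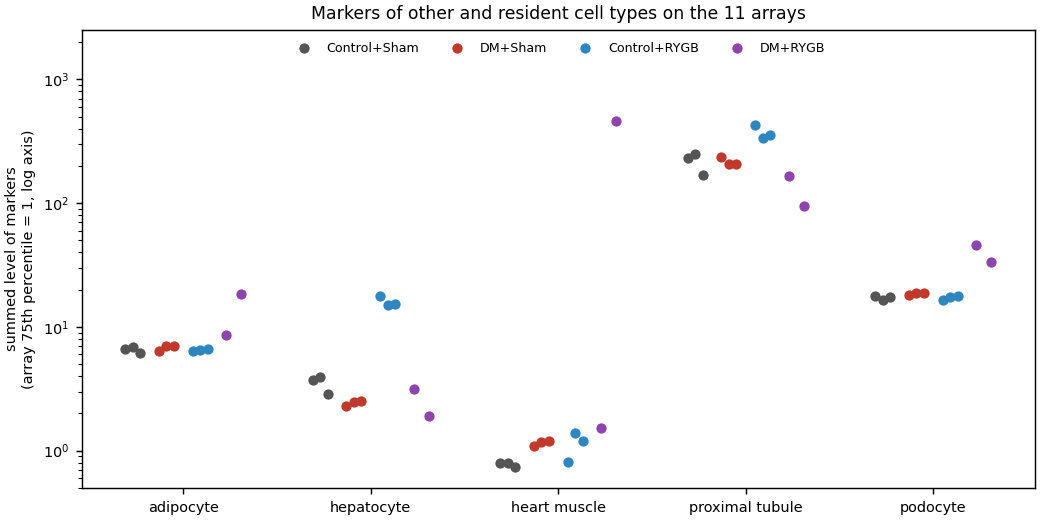
Summed linear signal of the markers of 5 cell types per array in units of the array's 75th percentile (log axis), by group, with 1 point per array. Heart muscle genes reach 465.8 on DM+RYGB 2 only, and hepatocyte genes are highest on the Control+RYGB arrays.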

How the data were processed

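Cy3 signal intensity of each spot on 11 single-colour arrays was obtained by the authors, per the file headers, with version 11.0.1.1 of Agilent's Feature Extraction software, which subtracts background and applies no scaling between arrays. The authors' deposited table of processed values served as an alternative: every column had a median of 7.07 and a correlation of 0.989 to 0.997 with the log2 scanner values, so it was read as log2 on a shared distribution, although the sources used here do not state its scale or centring.

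Of 44254 spots, 1377 controls were left out, outlier-marked spots were skipped and repeats of a probe averaged, which gave 30367 probes. By RefSeq accession, 17997 probes had 1 gene symbol, 0 several and 12370 none; the last were tested but not named. The analysed value was log2 signal minus the array's 75th percentile. Probes had to be well above background on 2 or more arrays, and the probe with the highest mean signal stood for its gene. Near-identical arrays were averaged as the report gives, leaving 9 samples and 5 residual degrees of freedom.

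Group means of all 4 groups were fitted in 1 model with limma 3.58.1 (lmFit, eBayes) in R 4.3.3, with Benjamini-Hochberg adjustment over 25807 genes and a threshold of 0.05. All adjusted p-values are from limma. The script was tested on simulated data. Alternatives were median and quantile scaling, the deposited table, normexp background correction with an offset of 50, other probe filters and summaries, 11 separate arrays, replicate number or scan day as a block, only the groups compared, and each sample left out. The numbers of the labels pair no samples by design, and deviations of same-numbered arrays correlated between -0.3774 and 0.4522, so they were not used as pairs.

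The members, the 63 partner genes and the marker lists were chosen with earlier results of these data known. Every member is named; of the partners, up to 2 per set and comparison with the smallest p among the called. A partner that this rule picks is not reported here by name. Second probes of the named members and partners are given with p adjusted over probes.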

Additional observations from a re-analysis of the deposited data

Results flagged for a closer look

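The following genes were set apart because the effect of bypass differed between diabetic and control rats in limma's test of that difference, given as the bypass effect in diabetic rats minus that in control rats on the log2 scale. Among the members, Fads1 stood at 2.06 (adjusted p = 0.00443), Fads2 at -1.33 (adjusted p = 0.00825) and Acly at -0.86 (adjusted p = 0.0307), the last without passing under quantile scaling. Fads1 and Fads2, whose enzymes act in the same pathway of polyunsaturated fatty acids, thus differed in opposite directions.

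Among the partners, the elongase Elovl2 stood at -3.21, and its second probe at -1.96. The lysophosphatidate acyltransferase Agpat3 was at -2.07, the lipid droplet coat gene Plin2 at -1.48, Idh1 at -1.52, Hsd17b12 at -1.15, Nr1h2 at -0.98 and the mitochondrial malonyl transferase Mcat at -0.56. Upward differences were those of Degs2, a dihydroceramide desaturase and hydroxylase, at 1.66 and of Scd2 at 1.14. These values use the Control+RYGB arrays, whose slide position no other array had. They also rest in part on DM+RYGB 2. Without it they were 2.40 for Fads1, -1.10 for Fads2, -0.76 for Acly (adjusted p = 0.0514), -2.89 for Elovl2, -2.09 for Agpat3, -1.33 for Plin2, -1.38 for Idh1, -1.09 for Hsd17b12, -1.05 for Nr1h2, -0.50 for Mcat (adjusted p = 0.044), 2.001 for Degs2 and 1.31 for Scd2, and of these Acly alone missed the threshold. Groups of 2 or 3 samples were not searched for single deviating values.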

How the results depend on the processing

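The precision is limited by 2 or 3 samples a group and, for Acaca and Scd, by signals near the dim end. Of the 45 single-member differences, over all alternatives 753 values kept their direction and side of the threshold, 81 lost a call, 29 gained one and 28 changed sign. Fasn and Fads1 in sham rats, Acly and Fads1 in diabetic rats, Acly, Acacb and Fasn among bypass rats, and the Fads1 difference between the bypass effects passed under every alternative run. Counts here use 75th percentile scaling and follow the order diabetes in sham rats, bypass in diabetic rats, bypass in control rats, diabetes in bypass rats, difference between the bypass effects. Members called were 5, 7, 3, 7 and 3. With normexp they were 2, 4, 0, 4 and 1, and with scan day as a block 3, 4 and 0 in the first 3 comparisons. Under limma the counts of 0 were 4 and 2 at an unadjusted p under 0.05. With only the groups compared, 3 members passed for bypass in diabetic rats. With 11 separate arrays 5 members passed for the difference between the bypass effects. With the replicate number as a block, 6, 7, 5, 7 and 5 members and 18, 33, 17, 25 and 28 partners passed, although the numbers pair no samples. Leaving out a sample gave 3 to 6, 4 to 8, 0 to 5, 6 to 8 and 2 to 5 members, and 2 to 17, 15 to 35, 0 to 20, 12 to 30 and 7 to 28 partners (10 without DM+Sham 2 and 3 in comparison 5). Partners called were 11, 31, 11, 21 and 17. They were 20, 20 and 31 with 11 separate arrays (comparisons 1, 3 and 5), 3 and 0 with normexp (comparisons 1 and 3, with 11 at an unadjusted p under 0.05 in the latter), 7, 20 and 0 with scan day (comparisons 1 to 3, with 7 unadjusted in the last), and 8, 19 and 11 with only the groups compared (comparisons 2 to 4).

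The cause of the sign changes was not tested. They concerned the dim Acaca probe and differences that were not called, among them Acacb for bypass in diabetic rats, whose value rested on the DM+RYGB sample used (0.39 with both, -0.035 without DM+RYGB 2). Acaca turned with normexp to -0.21, 1.24, -0.29, 1.31 and 1.53 in the 5 comparisons, to -0.059 (sham) and -0.075 (bypass, control) with median scaling, and to -0.23 with quantile scaling and -0.22 in the deposited table (bypass, control). Mlxipl turned with normexp to 0.35 (bypass, diabetic), 0.40 (diabetes, bypass) and 0.31 (difference), and for bypass in control rats to -0.11, -0.043 and -0.042 with median and quantile scaling and the deposited table. The median of all genes with normexp was -0.097, 0.94, -0.12, 0.89 and 0.92 in the 5 comparisons. Acly turned to 0.016 with scan day (sham), and to 0.032 with normexp and 0.044 with scan day (bypass, control). Fads2 turned to -0.047 with median scaling (bypass, control) and Scd to 0.37 with normexp (difference). Leaving out samples turned Acaca (-0.0097 to 0.059) and Acly (-0.18 to 0.014) in sham rats, Acacb (-0.035 to 0.81) for bypass in diabetic rats, Mlxipl (-0.063 to 0.22) and Acly (-0.16 to 0.036) for bypass in control rats, and Elovl6 (-0.53 to 0.12) and Scd (-0.47 to 0.072) in the difference between the bypass effects. Of all genes called, the share that was higher was 55.3%, 64.6%, 63.2%, 58.1% and 53.4% with the 75th percentile, 42.2%, 37.9%, 42.9%, 30.0% and 35.9% with median, and 53.7%, 38.5%, 40.3%, 45.8% and 43.3% with quantile scaling. All genes called numbered 306 and 271 with normexp in sham diabetes and bypass in control rats, against 4602 and 6273.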

Other observations

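Genes that place fatty acids into glycerolipids were also measured. With diabetes in sham rats, Dgat2, which makes triglyceride from diacylglycerol, rose by 0.68 (SE 0.11, adjusted p = 0.00958), and the acyl-CoA synthetase Acsl3 fell by 0.93 (SE 0.19, adjusted p = 0.0187). With bypass in diabetic rats 6 of the 14 measured genes of this set fell, against 15.6% of all genes, and 3 were higher with 75th percentile scaling but none with all 3 scalings, against 10.4%. Among the falls were those of Agpat3, which adds an acyl chain to lysophosphatidate, at -1.69 (SE 0.11, adjusted p = 0.000219; second probe -1.94, adjusted p = 0.000168), and Plin2, which coats lipid droplets, at -1.27 (SE 0.13, adjusted p = 0.000973). They differed by -1.70 and -1.12 without DM+RYGB 2. With bypass in control rats Acsl5 fell by 0.86 (SE 0.15, adjusted p = 0.0119) and Agpat2 by 0.41 (SE 0.12, adjusted p = 0.0458).

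The separate mitochondrial route of fatty acid synthesis, which supplies lipoate, had 5 measured genes. Mcat rose with diabetes in sham rats by 0.62 (SE 0.10, adjusted p = 0.00979). Mecr, its enoyl reductase, fell by 0.55 (SE 0.14, adjusted p = 0.017) and Hsd17b8 by 0.47 (SE 0.11, adjusted p = 0.0152) with bypass in diabetic rats, and Oxsm, its ketoacyl synthase, rose by 0.92 (SE 0.17, adjusted p = 0.0161) with bypass in control rats. Cbr4 fell by 0.50 (SE 0.10, adjusted p = 0.0104) with diabetes in bypass rats. Of the sphingolipid desaturases, Degs2 rose by 1.17 (SE 0.24, adjusted p = 0.00823) and Degs1 fell by 0.61 (SE 0.13, adjusted p = 0.0112) with bypass in diabetic rats. Without DM+RYGB 2 Mecr, Hsd17b8, Degs2 and Degs1 differed by -0.72, -0.39, 1.51 and -0.47 in that comparison, and Cbr4 by -0.45 among bypass rats, each past the threshold.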
